A study of Mus musculus with 4 samples.

Results

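The guanylin axis of the mouse colon is described here through 6 genes: the ligands Guca2a and Guca2b, the receptor Gucy2c, the kinase Prkg2, the phosphodiesterase Pde5a and the channel Cftr. They were taken by symbol from a table of 50600 genes, and each symbol matched 1 row. The set was chosen by a measured value, the higher count of Guca2b in the knockout, so the difference of Guca2b between genotypes is given as a description without a test. The libraries are RNA sequencing of primary epithelial cells from the colon of C57BL/6 mice, 2 from wild types (WT) and 2 from Mettl14 knockouts (KO). METTL14 belongs to the enzyme that writes N6-methyladenosine (m6A) into mRNA. What was deleted, by what driver, and whether animals were pooled, the labels do not say. All 4 titles carry the code 2W, which no label explains, and each title has a number of its own. Xist and 4 Y-linked genes showed 1 male and 1 female library in each genotype. WT replicate 1 and KO replicate 2 were the male ones.

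Guanylin (Guca2a) and uroguanylin (Guca2b) are small peptides that intestinal epithelial cells secrete into the lumen. Both bind guanylate cyclase C (Gucy2c) on the apical membrane, which then makes cGMP. In the intestinal epithelium, cGMP activates the membrane-bound kinase cGKII (Prkg2), which phosphorylates the chloride and bicarbonate channel CFTR. The same signal inhibits sodium uptake by the exchanger NHE3 (Slc9a3). Phosphodiesterase 5 (Pde5a) breaks cGMP down. The pathway is the one that heat-stable enterotoxin of bacteria drives in secretory diarrhoea.

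Both ligands are cut from the end of a longer precursor, and the stretches that encode their ends are shown because the results turn on telling these related genes apart. The last 45 coding bases before the stop codon are given 5′ to 3′ from GENCODE M21 transcripts (GRCm38), with in-frame TGT and TGC triplets, which encode cysteine, in capitals.
Guca2a, chr4:119639228-119639272, plus strand: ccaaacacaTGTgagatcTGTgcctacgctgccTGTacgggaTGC
Guca2b, chr4:119656795-119656839, minus strand: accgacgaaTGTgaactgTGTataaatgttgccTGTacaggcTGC
Each stretch held 4 cysteine triplets of 15, at the same places, and 29 of the 45 bases were identical (64.4%). The longest run shared by the whole coding sequences was 11 bases, and by these ends 9 bases. The genes thus encode ends with the same spacing of cysteines, and the bases that differ lie outside the cysteine triplets.

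Library totals lay between 22136440 and 24991060 counts. Levels are given in CPM, counts scaled to library totals corrected by TMM (trimmed mean of M-values). The targeted gene Mettl14 was at 11.7 and 8.67 CPM in WT and at 3.99 and 3.94 CPM in KO, lower in both libraries labelled KO (log2 fold change -1.36, edgeR adjusted p = 0.0504). Epithelial markers were high in all 4 libraries. The 10 absorptive colonocyte genes summed to 17987 and 26300 CPM in WT and to 15329 and 13770 CPM in KO. The 8 goblet cell genes summed to 8930 and 12053 CPM in WT and to 8827 and 7765 CPM in KO. The 6 fibroblast markers summed to 52.6, 75.9 and 65.8 CPM in WT replicates 1 and 2 and KO replicate 1, but to 565 CPM in KO replicate 2. The log2 fold changes of the 6 genes and the ratio of the ligands were therefore also computed without that library, and without each of the others. No source says that the libraries came from separate cultures or animals beyond their sex, so the p-values here cover no more than the spread among these 4 libraries.

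Guca2b (ENSMUSG00000032978, chromosome 4, 119656607 to 119658954, minus strand) was the gene that differed. Its counts were 364 and 511 in WT and 1828 and 2632 in KO. After scaling, these were 17.5 and 21.5 CPM in WT and 81.1 and 103 CPM in KO. Both KO libraries were high and both WT libraries low, with a wide gap between the genotypes. Mean CPM was 19.5 ± 2.81 for WT against 91.8 ± 15.2 for KO (SD, n = 2). That is 4.70-fold, or 2.23 on the log2 scale (SE 0.18). Between the male libraries the difference was 2.51 on the log2(CPM + 0.5) scale, and between the female libraries 1.89. Without KO replicate 2, the library with the most fibroblast marker RNA, the log2 fold change was 2.07, and without KO replicate 1 it was 2.38. The part of fibroblast RNA in the difference was not tested. In bulk RNA, more or fewer cells of a type and more or less RNA per cell cannot be told apart.

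**Figure D1:**
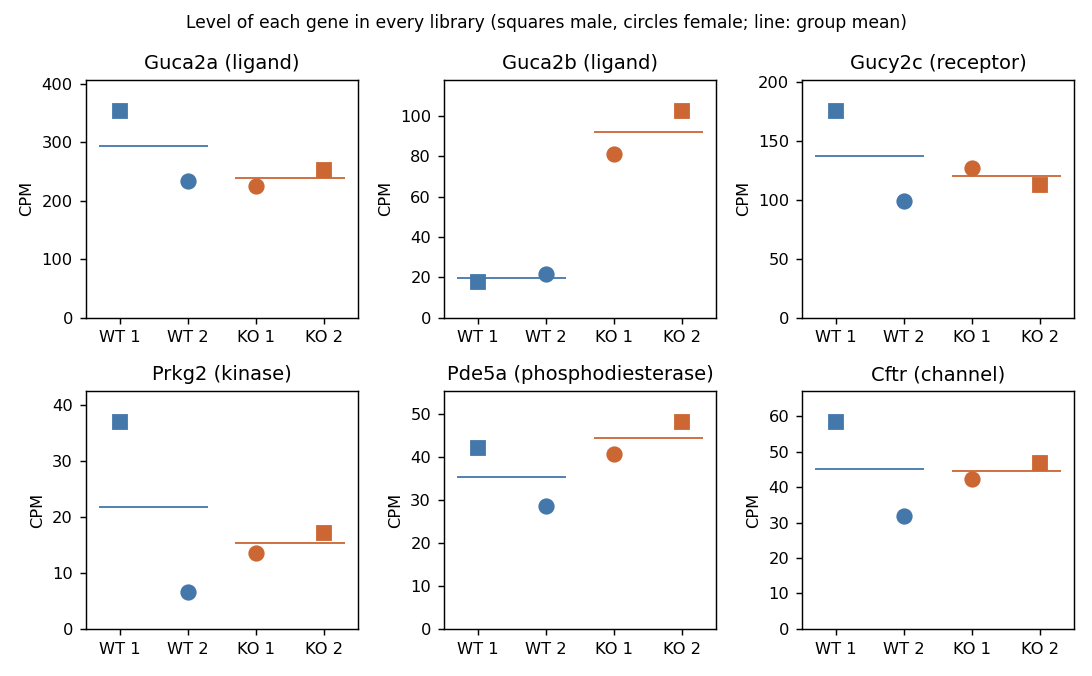
Level of each of the 6 genes (CPM after TMM scaling, linear axis from 0) in the 2 WT (blue) and 2 KO (orange) libraries, with squares for male, circles for female and a line at each group's mean. Guca2b is at 17.5 and 21.5 CPM in WT and 81.1 and 103 CPM in KO, and in the other 5 genes the genotypes overlap.

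Guca2a (ENSMUSG00000023247, chromosome 4, 119637704 to 119639471, plus strand) did not share this pattern. It was the most abundant of the 6 genes, with 7355 and 5580 counts in WT and 5065 and 6470 in KO. Scaled levels were 354 and 235 CPM in WT and 225 and 252 CPM in KO. WT replicate 1 stood above the other 3 libraries, which lay close together, and the genotypes overlapped. Mean CPM was 295 ± 84.5 for WT and 238 ± 19.5 for KO (SD, n = 2). The log2 fold change was -0.31 (95% interval -0.91 to 0.30, edgeR adjusted p = 0.417), so a fall of moderate size is within the error. Without WT replicate 1 the log2 fold change was 0.011.

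The ratio of the ligands can be read within each library, without any scaling between libraries. Guca2b had 0.0495 and 0.0916 counts per count of Guca2a in WT, and 0.361 and 0.407 in KO. As a share of the counts of both ligands, Guca2b made up 4.72% (95% Wilson interval 4.26% to 5.21%) in WT replicate 1. It made up 8.39% (7.72% to 9.11%) in WT replicate 2. The shares were 26.5% (25.5% to 27.6%) in KO replicate 1 and 28.9% (28.0% to 29.9%) in KO replicate 2. These intervals cover counting error only, and those of the WT libraries did not overlap each other. The mean share was 6.55 ± 2.6% in WT and 27.7 ± 1.69% in KO (SD, n = 2). The summed level of both ligands was 372 and 256 CPM in WT and 306 and 355 CPM in KO. These sums overlapped, with the KO libraries between the WT ones. Guanylin was the larger part of the ligand counts in every library.

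**Figure D2:**
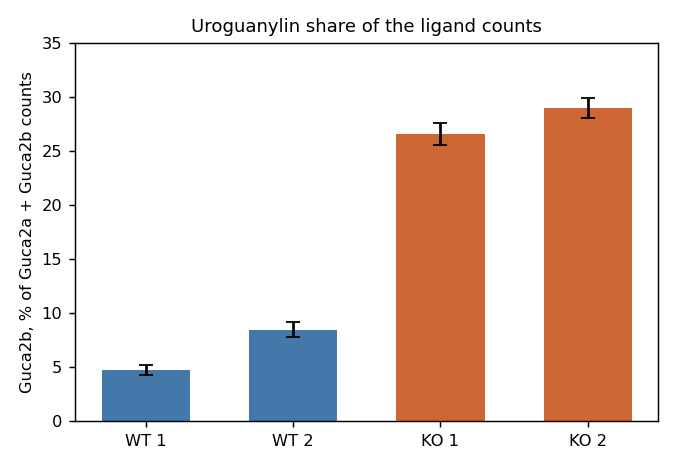
Guca2b counts as a percentage of the Guca2a and Guca2b counts of each library (bars, linear axis from 0), with 95% Wilson intervals for counting error. The WT bars stand at 4.72% and 8.39% and the KO bars at 26.5% and 28.9%.

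Gucy2c (ENSMUSG00000042638, chromosome 6, 136697284 to 136781765, minus strand), the receptor of both ligands, had 3641 and 2345 counts in WT and 2869 and 2890 in KO. Scaled, the WT libraries were at 175 and 98.7 CPM and the KO libraries at 127 and 113 CPM. The WT libraries were the highest and the lowest of the 4, with both KO libraries between them. Means were 137 ± 54.3 CPM in WT and 120 ± 10.3 CPM in KO, a log2 fold change of -0.19 (95% interval -0.98 to 0.60, edgeR adjusted p = 0.695). Guca2b had 0.1 and 0.218 counts per count of Gucy2c in WT and 0.637 and 0.911 in KO, and these groups did not overlap. For Guca2a the same ratio was 2.02 and 2.38 in WT and 1.77 and 2.24 in KO, where they did. The first of these ratios holds the count that chose the set and is a description.

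Prkg2 (ENSMUSG00000029334, chromosome 5, 98929773 to 99037351, minus strand), the kinase that carries the cGMP signal to CFTR, varied most within a genotype. Counts of 767 and 157 in the WT libraries stood beside 307 and 439 in the KO libraries. The levels of 37.0 and 6.61 CPM in WT enclosed the 13.6 and 17.1 CPM of KO. Its log2 fold change of -0.50 had a 95% interval of -2.59 to 1.60 (edgeR adjusted p = 0.703), too wide to place it on either side of 0. Which WT library was kept decided the sign. Without WT replicate 1 the log2 fold change was 1.21, and without WT replicate 2 it was -1.23. With a single WT library these are given as values without a test. Between the male libraries it was -1.09 and between the female libraries 0.99 on the log2(CPM + 0.5) scale. The male WT library stood 2.4 above the female one on that scale, against 0.32 between the KO libraries. Sex and any other difference between these libraries cannot be told apart here.

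Pde5a (ENSMUSG00000053965, chromosome 3, 122728947 to 122859374, plus strand), which degrades cGMP, had 876 and 682 counts in WT and 922 and 1237 in KO. These were 42.2 and 28.7 CPM in WT and 40.9 and 48.2 CPM in KO, so the genotypes overlapped by 1 library. The log2 fold change was 0.33 (95% interval -0.24 to 0.90, edgeR adjusted p = 0.356). It was 0.11 without WT replicate 2 and 0.62 without WT replicate 1. Pde5a lies on the chromosome of the targeted gene, 509 kb from Mettl14. It is also a gene of smooth muscle and endothelium. The 7 smooth muscle markers summed to 10.5 and 14.4 CPM in WT and 16.9 and 31.8 CPM in KO, and the 6 endothelial markers to 6.02 and 9.09 in WT and 15.0 and 15.0 in KO. No marker of either list was at 0 in all 4 libraries, though Emcn, which marks endothelium, had 1 count in WT replicate 1 and 0 in the others. Their part in the level of Pde5a was not tested. Prkg1, the cGMP kinase of smooth muscle, had 0, 2, 1 and 3 counts in WT replicates 1 and 2 and KO replicates 1 and 2.

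Cftr (ENSMUSG00000041301, chromosome 6, 18170687 to 18322768, plus strand), the anion channel at the end of the pathway, had 1212 and 759 counts in WT and 957 and 1200 in KO. Its 58.4 and 31.9 CPM in WT again enclosed the KO values of 42.4 and 46.8 CPM. Group means were 45.2 ± 18.7 and 44.6 ± 3.06 CPM (SD, n = 2). The log2 fold change was -0.017 (95% interval -0.82 to 0.78, edgeR adjusted p = 0.975). Its sign turned under 6 of 10 alternatives, and it was 0.47 without WT replicate 1 and -0.36 without WT replicate 2.

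Read together, none of the 5 genes beside Guca2b was called by edgeR, 0 of them had an unadjusted p under 0.05, and DESeq2 called 0. Across the table, edgeR called 1.72% of 14861 genes higher in KO and 1.9% lower. The genotypes overlapped in each of these 5 genes, whereas they did not overlap in 63.3% of all genes tested. In 3 genes, Gucy2c, Prkg2 and Cftr, WT replicate 1 was above and WT replicate 2 below both KO libraries. That order was found in 7.25% of all genes tested. Guca2a was also highest in WT replicate 1, and Pde5a lowest in WT replicate 2. Guca2b alone among the 6 was lower in WT replicate 1 than in WT replicate 2.

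**Figure D3:**
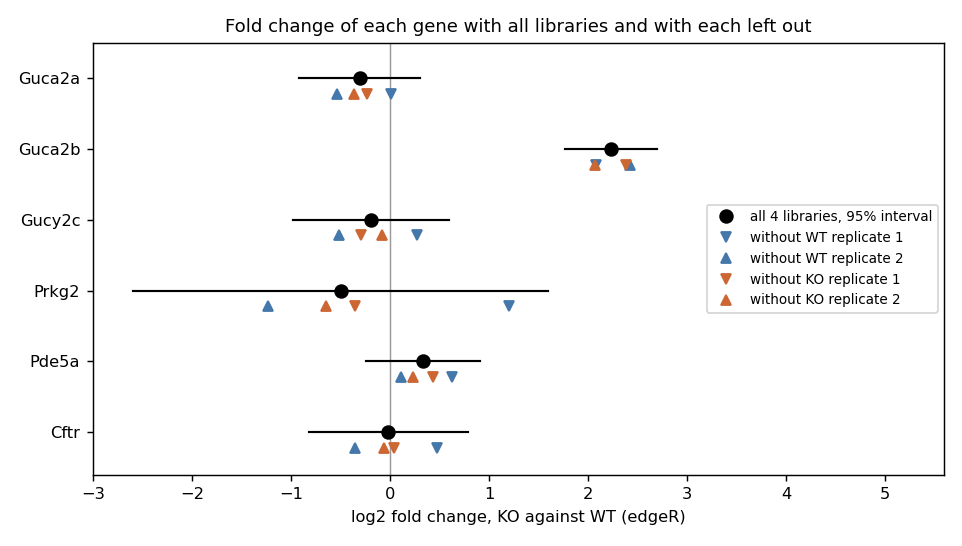
Log2 fold change of KO against WT from edgeR for each of the 6 genes, with its 95% interval over all 4 libraries (black) and with each library left out (triangles, blue for WT and orange for KO). Guca2b lies between 2.07 and 2.42 whichever library is left out, and the triangles of Prkg2 run from -1.23 to 1.21.

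Levels of different genes were compared per kilobase of annotated exon (RPKM, from the TMM-scaled counts). In WT the order of mean RPKM was Guca2a at 496 ± 142, Gucy2c at 34.6 ± 13.7, Guca2b at 22.4 ± 3.23, Cftr at 5.82 ± 2.41, Prkg2 at 4.06 ± 4.0 and Pde5a at 3.61 ± 0.971. In KO it was Guca2a at 401 ± 32.8, Guca2b at 106 ± 17.5, Gucy2c at 30.3 ± 2.61, Cftr at 5.74 ± 0.394, Pde5a at 4.53 ± 0.527 and Prkg2 at 2.86 ± 0.46. The uroguanylin RNA was thus below the receptor RNA in WT replicate 1 (20.2 against 44.3 RPKM) and level with it in WT replicate 2 (24.7 against 24.9). In KO it was above the receptor in both libraries, at 93.2 and 118 against 32.1 and 28.4 RPKM. The ranges of Cftr, Prkg2 and Pde5a overlapped in WT. Per kilobase of the longest coding transcript, Guca2b was at 28.0 ± 4.03 in WT and Gucy2c at 34.6 ± 13.7, and the 2 genes then overlapped in WT.

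The genes whose pattern over the 4 libraries was most like that of Guca2b were found by the Euclidean distance between log2(CPM + 0.5) values centred on each gene's mean. Of 9775 other genes with a mean of at least 5 CPM and no predicted-gene symbol, the nearest was Gdpd5, a glycerophosphodiester phosphodiesterase, at a distance of 0.0103. Its counts of 96 and 137 in the WT libraries compare with 516 and 739 in the KO libraries. The next were Gpc1, a cell-surface heparan sulfate proteoglycan (distance 0.103), Sema4c, a semaphorin (0.127), Mfge8, a secreted protein that helps in the uptake of dying cells (0.139), and Tnfaip8l1 (0.28). Their log2 fold changes ran from 2.13 (Mfge8) to 2.33 (Tnfaip8l1). They were picked for likeness to Guca2b over these same libraries. Their rise of KO over WT and the place of WT replicate 1 below WT replicate 2 follow from that choice.

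Guca2a and Guca2b are neighbours that point towards each other, with 17.1 kb between their ends. GENCODE M21 places 15 genes of the table within 250 kb of them, and 7 of these, the 2 ligands included, had enough counts to be tested. Hivep3, a zinc finger protein gene on the far side of Guca2b, had a mean CPM of 4.27 ± 0.927 for WT and 9.21 ± 0.862 for KO (SD, n = 2). Its log2 fold change was 1.11 (edgeR adjusted p = 0.0635), not called. Foxj3, a forkhead gene on the far side of Guca2a, was at 34.4 ± 4.08 CPM in WT and 28.7 ± 0.303 CPM in KO (-0.26, edgeR adjusted p = 0.229). Frg2f1 (-0.92), Rimkla (-0.31) and Ppcs (0.039) were not called either. The other 8 genes were not tested, with at most 12 counts in any library. Of the 6 tested genes at the locus other than Guca2b, edgeR called 0, against 1.72% higher and 1.9% lower over all genes tested. At an unadjusted p under 0.05 there was 1, Hivep3, against 14.8% higher and 15.7% lower over all genes tested.

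Since the neighbours differed in their values, the 250 bases before each transcription start are shown. They are from RefSeq (GRCm38.p6), which gave a promoter for 4 of the 6 genes, and run 5′ to 3′ on the strand of the gene. Capitals mark matches, on either strand, to any of 5 short motifs that were chosen after the windows were seen. The letters searched for HNF1 factors were GTTAAT, a part of their site. Those searched for GATA factors were AGATAA, which reads TTATCT on the other strand. For the intestinal CDX factors the search used TTTATG, and no match was found in these windows. For TCF7L2, the factor of Wnt signalling, it used CTTTGAT, again without a match. The letters of the TATA box were taken as TATAAA, which neither window held. The CDX and TATA box letters share the run TTTAT when read on one strand.
Guca2a, chr4:119637482-119637731, plus strand: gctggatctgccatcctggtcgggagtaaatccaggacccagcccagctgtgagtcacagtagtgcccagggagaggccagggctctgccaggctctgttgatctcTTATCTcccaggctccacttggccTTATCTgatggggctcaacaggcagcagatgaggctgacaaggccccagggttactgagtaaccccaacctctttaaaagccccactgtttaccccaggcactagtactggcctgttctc
Guca2b, chr4:119658946-119659195, minus strand: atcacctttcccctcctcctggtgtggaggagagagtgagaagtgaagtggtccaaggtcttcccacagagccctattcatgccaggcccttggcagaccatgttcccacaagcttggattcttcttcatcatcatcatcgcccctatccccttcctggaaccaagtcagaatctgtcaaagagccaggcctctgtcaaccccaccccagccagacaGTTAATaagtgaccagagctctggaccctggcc
The Guca2a window held 2 matches to the GATA letters, and 9.99% of 32851 promoter windows contain at least 1. The Guca2b window held 1 match to the HNF1 letters, present in 6.43% of windows. The letters for CDX, TCF7L2 and the TATA box are in 10.8%, 3.21% and 12.4% of windows. The longest run shared by both windows was 8 bases. RefSeq and GENCODE place the starts of both genes differently, so the last bases of these windows lie inside the gene spans given above. A match is a run of letters, not a bound site. Only exact letters were counted, so a window without a match can still hold a site that differs from them. The Cftr and Pde5a windows held no match, and were rich in G and C (76.4% and 68.4%, against 57.2% in Guca2a and 54.4% in Guca2b).

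The letters GGACT, the core of the sequence in which the METTL3 and METTL14 enzyme methylates adenosine, were counted on the sense strand of the longest coding transcript of each gene. Guca2a had 0 in 594 bases and Guca2b 1 in 697 bases. Pde5a had 7, Cftr 6, and Gucy2c and Prkg2 4 each. Per kilobase, Guca2b had 1.43, Gucy2c 1.01, Pde5a 1.01, Cftr 0.952 and Prkg2 0.805. The median over 13532 tested coding genes was 1.06 per kilobase, and 91.6% of them had at least 1 match. Methylation itself was not measured in these libraries.

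The genes around the axis were read from 6 lists of 78 genes in all, of which 69 had enough counts to be tested. Of these, 1 was called higher and 1 lower, against 1.72% and 1.9% of all genes tested. The lists differed in where their medians lay, and the median over all genes tested was -0.013.

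Among 13 tested cGMP effectors and breakdown enzymes, 1 was called higher and 0 lower, with a median log2 fold change of 0.23. Of these values, 8 were positive and 5 negative. All 15 genes of the list summed to 730 and 861 CPM in WT and to 811 and 573 CPM in KO, so the genotypes overlapped. The called gene was Pde1c, a calmodulin-activated phosphodiesterase that hydrolyses both cAMP and cGMP. It had 17 and 23 counts in WT and 95 and 139 in KO. Its level went from 0.893 ± 0.105 to 4.81 ± 0.852 CPM (SD, n = 2; log2 fold change 2.42, edgeR adjusted p = 0.0438). Without KO replicate 1 the log2 fold change was 2.58 and without KO replicate 2 it was 2.25, although with either left out edgeR called 0 genes of the whole table. The list's median was 0.53 without WT replicate 1, 0.29 without WT replicate 2, 0.39 without KO replicate 1 and 0.15 without KO replicate 2. Abcc4, an exporter of cyclic nucleotides chosen after its values were seen, was at 7.96 ± 2.26 CPM in WT and 19.6 ± 0.756 CPM in KO (1.29, edgeR adjusted p = 0.0532). The other guanylate cyclases and the natriuretic peptide receptors were at or near the floor. None of the 6 was tested. Gucy1a3, a subunit of soluble guanylate cyclase, had 6 to 13 counts in every library. Npr1 had 1 and 5 counts in WT and 9 and 41 in KO, the highest in the library with the most fibroblast marker RNA.

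Of 12 ion transport genes, 0 were called by edgeR, with a median log2 fold change of 0.48 and 8 of 12 values positive. At an unadjusted p under 0.05 there were 6 higher and 0 lower, where 14.8% and 15.7% of all genes tested passed, and DESeq2 called 5 higher and 0 lower, against 6.41% and 6.56% of all genes tested. The genotypes did not overlap in 7 genes on the higher side, as in 31.1% of all genes tested, and in 1 on the lower side. Slc12a2, the basolateral chloride uptake carrier that feeds Cftr, was at 158 ± 13.8 CPM in WT and 266 ± 0.99 CPM in KO (0.75, edgeR adjusted p = 0.0526). It was called in 5 of 10 alternatives. Slc9a2, the exchanger NHE2 and the most abundant of the list over all 4 libraries, was at 286 ± 46.6 and 242 ± 60.3 CPM (-0.24). Named after their values were seen, the potassium channel genes Kcnq1 and Kcne3, which form the basolateral channel that sustains chloride secretion, were at 18.4 ± 2.33 and 31.7 ± 0.924 CPM (0.79) and at 17.9 ± 5.28 and 42.5 ± 5.86 CPM (1.24). Slc9a3, the exchanger that this pathway inhibits, was at 37.7 ± 2.46 CPM in WT and 61.0 ± 14.0 CPM in KO (0.69, edgeR adjusted p = 0.0906). The negative values of the list, beside that of Slc9a2, were -0.55 for Ano1, -0.30 for Best2 and -0.68 for Slc4a4.

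Scaffold and traffic genes of CFTR and NHE3 lay on the other side of 0. None of 11 was called by edgeR, 9 of 11 had a negative log2 fold change, and the median was -0.41. At an unadjusted p under 0.05 there were 0 higher and 4 lower (14.8% and 15.7% over all genes tested), and DESeq2 called 0 higher and 4 lower (6.41% and 6.56%). Without WT replicate 2 the median was -0.26. In all 9 the genotypes did not overlap, as in 32.2% of all genes tested on the lower side. Ezr, which encodes ezrin, was at 503 ± 171 and 335 ± 20.3 CPM (-0.59, edgeR adjusted p = 0.216). Myo5b, the motor of apical recycling, was at 283 ± 21.4 and 172 ± 2.6 CPM (-0.72, edgeR adjusted p = 0.054). Without KO replicate 2 the list's median was -0.50, and with library size scaling it was -0.23, where the median of all genes moved to 0.15.

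Of 21 tested genes of the cAMP arm, which also opens CFTR, 0 were called (3 higher and 6 lower at an unadjusted p under 0.05, and 0 higher and 3 lower by DESeq2). Over all genes tested these shares were 14.8% and 15.7% unadjusted and 6.41% and 6.56% by DESeq2. The median was -0.11, and 0.065 with library size scaling. Adcy6, the adenylate cyclase tied to CFTR in the gut, was at 175 ± 8.07 CPM in WT and 112 ± 6.91 CPM in KO (-0.64, edgeR adjusted p = 0.0567). Gnas, the stimulatory G protein, was at 369 ± 44.9 and 349 ± 15.0 CPM (-0.079). Among 12 intestinal transcription factors, edgeR called 0 higher and 1 lower (1.72% and 1.9% over all genes tested), with a median of -0.18. At an unadjusted p under 0.05 there were 2 higher and 5 lower (14.8% and 15.7%). DESeq2 called 1 higher and 3 lower (6.41% and 6.56%). The gene called by edgeR was Hnf4g, from 7.14 ± 0.396 to 2.24 ± 0.0283 CPM (-1.67, edgeR adjusted p = 0.0434). It was -1.69 without KO replicate 1 and -1.64 without KO replicate 2, where no gene of the table was called.

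**Figure D4:**
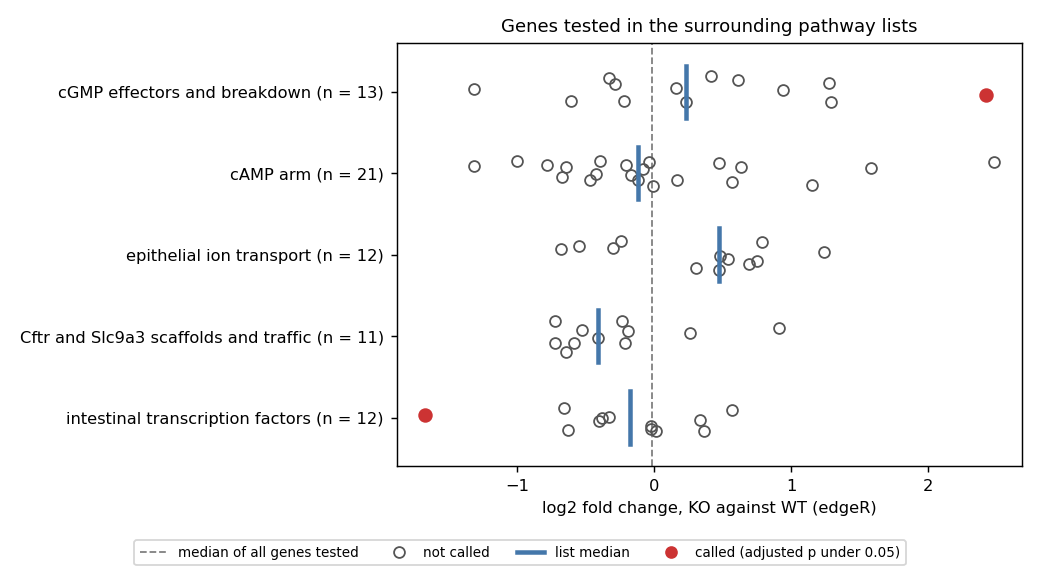
Log2 fold change of KO against WT for each tested gene of 5 surrounding lists (open circles not called, filled circles called at an adjusted p under 0.05), with each list's median (blue) and the median of all genes tested (dashed). Pde1c (2.42) and Hnf4g (-1.67) are the called genes, and the medians run from -0.41 for scaffolds to 0.48 for ion transport.

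Cell type markers were read beside Guca2b. Over all genes tested, edgeR called 1.72% higher and 1.9% lower, and DESeq2 6.41% and 6.56%. Small intestinal enterocyte genes, a cell type in which uroguanylin is abundant, summed to 614 and 381 CPM in WT and 503 and 458 CPM in KO, so the sums overlapped. Of 11 tested, edgeR called 0 and DESeq2 called 4 higher and 1 lower, while 3 higher and 1 lower had an unadjusted p under 0.05 (14.8% and 15.7% over all genes). The median log2 fold change was -0.27, with 5 of 11 positive and 6 negative. It was 0.77 without WT replicate 1 and 0.10 without WT replicate 2, so its sign rested on having both. Lct, the lactase of the small intestine, had at most 3 counts in any library. Posterior Hox genes, which mark the distal gut, had a median of -0.51, with 0 of 7 called higher and 1 called lower. Without WT replicate 1 the median was -0.99, and without WT replicate 2 it was -0.37. Cycling cell genes summed to 109 and 128 CPM in WT and 270 and 256 CPM in KO, with 4 of 6 called higher by edgeR and 6 by DESeq2. Macrophage genes summed to 63.3 and 94.98 CPM in WT and 185 and 156 CPM in KO, with 3 of 8 called higher by edgeR and 5 by DESeq2. Without either KO library, no gene of these lists was called by edgeR. Absorptive colonocyte genes had 1 of 10 called lower, with a median of -0.43. That median was -0.62 without WT replicate 1 and -0.19 without WT replicate 2. The part of these differences in the level of Guca2b was not tested.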

How the data were processed

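The authors deposited whole-number counts per gene, unnormalised, judged from the values. Per the submitters' processing notes, FastQC 0.11.2, STAR 2.4.2a, RSEM 1.2.29 and mm10 were used, with no roles stated. No source used here gives the annotation release, the strandedness or whether estimates were rounded. Identifiers were matched to GENCODE M21 (GRCm38), which held 99.56% of them. Groups came from the genotype label. Replicates were numbered in accession order and pair no libraries.

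Genes were filtered with filterByExpr (14861 kept), scaled by TMM and tested with edgeR 4.0.16 in R 4.3.3 (quasi-likelihood, legacy and robust, 2 residual degrees of freedom, two-sided). Benjamini-Hochberg adjustment ran over all genes, with a threshold of 0.05. The SE is the fold change divided by the square root of F. A count of 0 leaves room for 3 counts, and intervals on shares cover counting error alone. The test was also run on simulated counts, with the outcome not given here. Alternatives were DESeq2 1.42.0, 2 other scalings, no filter, sex as a covariate, mitochondrial genes left out, and each library left out.

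The members and lists were chosen with earlier results of these data known. Named genes were the members, each list's called genes (at most 4, or its 2 most abundant), 5 genes like Guca2b, and genes within 250 kb of the ligands. Motifs, Abcc4, Kcnq1, Kcne3, Slc9a3, Prkg1, Ano1, Best2, Slc4a4, Fabp6 and Sis were chosen afterwards. Of the marker genes, Lct and Emcn were named for their low counts.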

Additional observations from a re-analysis of the deposited data

How the results depend on the processing

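Guca2b kept its direction under all 10 alternatives, with log2 fold changes from 2.07 to 2.42. Its rise over these same libraries chose the set, so this describes the values and is no test of the rise. Without KO replicate 1 and without KO replicate 2 edgeR called 0 genes in all, Guca2b included (1219 higher and 1038 lower, and 1010 and 977, at an unadjusted p under 0.05). Leaving out each library in turn gave 0 to 1271 genes called higher and 0 to 1019 lower, 0 to 8 pathway genes higher and 0 to 13 lower, and log2 fold changes of -0.54 to 0.011 for Guca2a, -0.52 to 0.27 for Gucy2c, -1.23 to 1.21 for Prkg2 and -0.36 to 0.47 for Cftr, whose signs thus turned. Cftr was also at 0.16 with library size scaling, 0.014 without a filter, 0.041 with sex as a covariate and 0.012 without mitochondrial genes. Gnas turned to 0.089 with library size scaling and ran from -0.21 to 0.083 with 1 library left out. Calls over all genes (higher and lower) and among pathway genes were 952, 975, 8 and 10 with DESeq2, 862, 770, 8 and 9 without a filter, and 696, 713, 6 and 6 with sex as a covariate. Library size scaling gave 604 and 186, 76.5% higher against 47.5% with TMM, and 6 pathway genes higher. The causes were not tested. The ratio of Guca2b to Guca2a needs no scaling and was 0.0495 to 0.0916 in WT and 0.361 to 0.407 in KO with 1 library left out. With 2 libraries per genotype, leaving 1 out only returns the ratio of the other, which is no further check. No paired analysis was possible because the labels give the libraries no shared replicate numbers, and the fit with sex as a covariate matches libraries only by the sex read from their RNA.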
